A study of Mus musculus with 8 samples.

Results

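A set of 10 genes tied to macrophage identity, which includes the ligand Csf1, was followed in CT26 tumors: Csf1r, Csf1, Adgre1, Cd68, Mertk, Trem2, Apoe, Gpnmb, Marco and Fcrls. They were chosen by name, with earlier results of these data known, and every non-control probe of the arrays that carries one of these names was taken. This gave 18 probes of 10 genes among 56567 probes of 37309 gene names. Of the 18 probes 17 had a signal well above background in both samples of some group, and these were tested among 31912 probes of 21616 gene names. All 10 genes kept at least 1 tested probe, which was well above background on all 8 arrays. The probe with the highest mean over the 8 arrays stands for its gene below, and the others are given beside it.

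CT26 is a colon carcinoma line of BALB/c mice, and 500000 cells were implanted under the skin of the flank. Once tumors were established, mice received vehicle, the EP4 antagonist TP-16 (also named BY001; 75 mg/kg by mouth every day), an anti-PD-1 antibody (intraperitoneal, 50 µg per mouse at 2 doses a week) or the combination of these for 2 weeks. Total RNA of whole tumors, 2 samples per group described as independent biological replicates, was labelled with Cy3 and hybridised to 8 one-colour Agilent mouse arrays. All groups carried the same tumor line, and the combination group received both agents at the doses of the single-agent groups. Whether tumors were pooled for a sample is not given in the sources used here, so the p-values measure the spread between these samples.

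Tumor macrophages arise largely from blood monocytes and depend on the receptor Csf1r, which is activated by the ligands Csf1 and Il34. They take up dead cells through receptors such as Mertk, break the material down in lysosomes, and handle its lipids with Apoe and the lipid sensor Trem2. EP4 is a receptor for prostaglandin E2 on myeloid and other cells, and PD-1 is an inhibitory receptor of T cells.

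A single slide and a single scan held all 8 arrays. Arrays without the antibody were in slide row 1 and those with it in row 2, and arrays without TP-16 were in columns 1 and 2 and those with it in columns 3 and 4. Antibody and slide row cannot be told apart, nor TP-16 and slide column. Taken over non-control spots, the 75th percentile of intensity was 575 and 582 in vehicle, 814 and 849 in TP-16, 616 and 632 in anti-PD-1, and 926 and 1124 in the combination. Levels below are log2 intensities relative to this percentile of the same array, so a level of 0 lies at the percentile. The vehicle arrays differed most from each other (SD of the replicate difference over all tested probes 0.675, against 0.417 to 0.525 in the other groups).

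In the combination group, 5 of the 10 genes rose against vehicle and 0 fell (limma, Benjamini-Hochberg adjusted p of at most 0.05 over all tested probes). The risers were Adgre1, Mertk, Cd68, Apoe and Csf1r, and for each of them both combination arrays lay above both vehicle arrays, as they did for 24% of all probes. Among all tested probes 31.0% were called in this comparison, 9.39% higher and 21.6% lower. At the methods' threshold, a fold of 2 or more with unadjusted p up to 0.05, 3 genes were higher (Adgre1, Mertk, Cd68; 6.26% of all probes) and Fcrls was lower (8.79% of all probes). The median log2 change of the 10 genes was 0.69, beside -0.19 for all tested probes. With quantile normalization the median of all probes was -0.01 and the split of calls moved from 30.3% higher and 69.7% lower to 49.6% and 50.4% (19.5% and 80.5% with normexp), so changes are to be read relative to this shift; the 5 genes were also called higher under both scalings, and normexp in addition called Marco and Fcrls lower, where it called 13732 of the 31912 probes lower and 3334 higher. These calls rested on the arrays at hand: without combination replicate 2, limma called no member gene and no other probe. Without vehicle replicate 1, Csf1r and Apoe were no longer called. Without vehicle replicate 2, Mertk was not called and Fcrls was called lower. In whole-tumor RNA, more macrophages and more RNA of these genes per cell cannot be told apart.

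**Figure D1:**
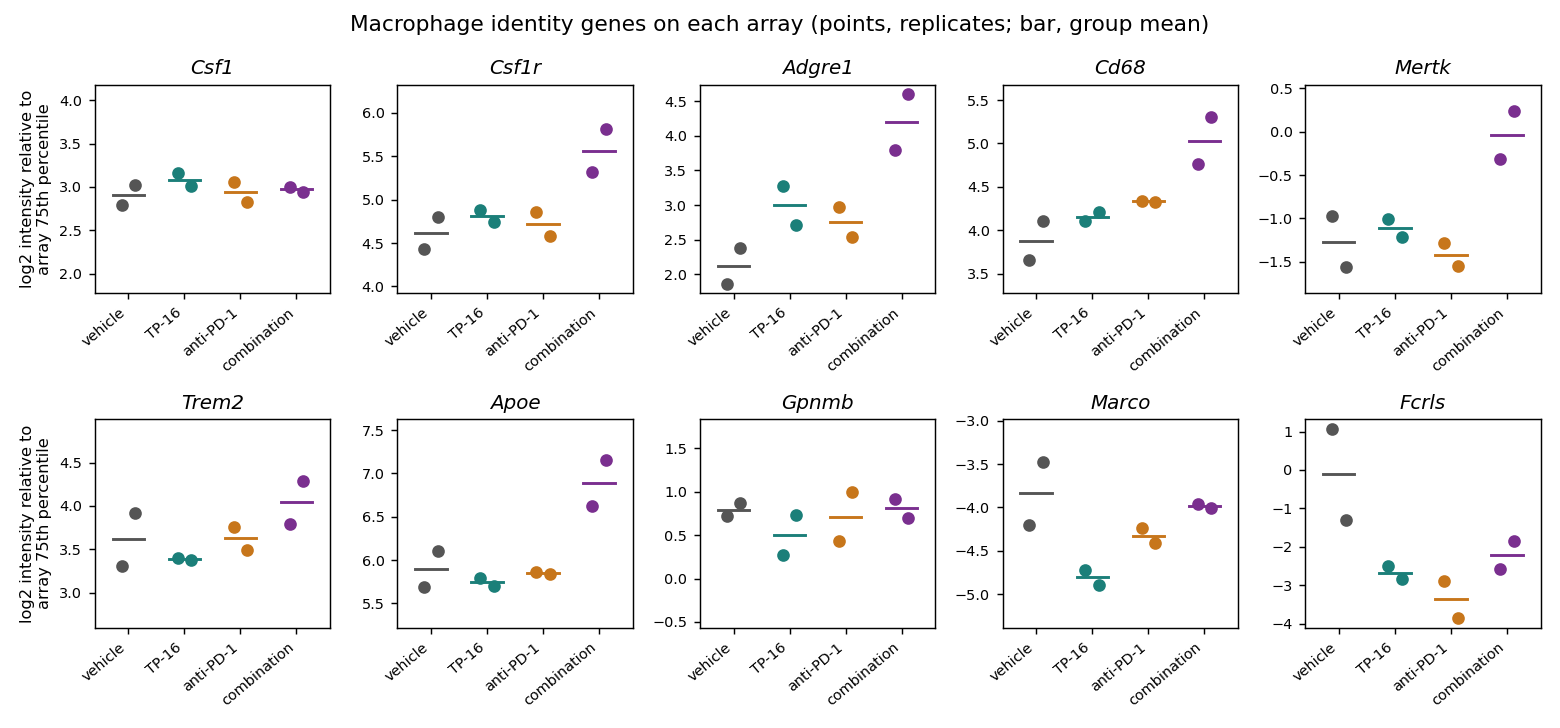
Each panel shows 1 gene by its brightest probe; the vertical axis is log2 intensity relative to the 75th percentile of the array, with its own range per panel, points are the 2 arrays of a group and bars the group means. Both combination arrays lie above both vehicle arrays for Csf1r, Adgre1, Cd68, Mertk and Apoe, as for 24% of all tested probes. For Fcrls vehicle replicate 1 stands highest, at 1.07.

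Csf1r, the receptor tyrosine kinase on which macrophage survival depends, had levels of 4.43 and 4.80 in vehicle, 4.88 and 4.74 in TP-16, 4.86 and 4.58 in anti-PD-1, and 5.32 and 5.82 in the combination. The combination arrays were the highest of the 8, and the other groups overlapped. Its change against vehicle was 0.95 (SE 0.22, adjusted p = 0.0275), a 1.93-fold rise. The probe lies at chr18:61290725-61290784 (mm9). A second Csf1r probe at chr18:61278661-61278720 read -1.08 and -1.28 in vehicle and -0.93 and -0.45 in the combination, a difference of 0.49 that was not called (adjusted p = 0.145), also with the combination arrays on top.

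Csf1, the ligand of this receptor, read 2.80 and 3.02 in vehicle, 3.16 and 3.01 in TP-16, 3.06 and 2.83 in anti-PD-1, and 3.01 and 2.94 in the combination at chr3:107544333-107544392 (mm9). Vehicle overlapped with each other group, and the combination arrays lay below both TP-16 arrays. The difference of the combination from vehicle was 0.065 (SE 0.141, 95% CI -0.28 to 0.41, adjusted p = 0.746). Csf1 has 2 further probes, which carry another transcript accession and overlap each other on the genome. On these the combination arrays were the lowest of the 8, at 1.35 and 1.17 on one and 1.37 and 1.05 on the other, and TP-16 arrays were the highest. Their difference from vehicle was -0.23 and -0.24 (adjusted p = 0.184 and 0.277), and against TP-16 -0.50 and -0.48 (adjusted p = 0.139 and 0.171), none of them called. The Csf1 probes thus disagreed in sign against vehicle, and the mean of the 3 gave -0.135 (adjusted p = 0.394).

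Il34, the second ligand of Csf1r, read 1.86 and 2.07 in vehicle and 1.40 and 0.91 in the combination (-0.81, SE 0.25, adjusted p = 0.0546). Csf2, a growth factor for granulocytes and macrophages, read -3.65 and -3.49 in vehicle and -3.91 and -4.22 in the combination (-0.49, adjusted p = 0.078). Neither was called, except with normexp (-0.72, adjusted p = 0.0276, and -0.62, adjusted p = 0.00603). For each, both combination arrays lay below both vehicle arrays, as was so for 46.4% of all probes. Spi1, a transcription factor that drives Csf1r expression, differed by 1 from vehicle on the log2 scale (adjusted p = 0.0778), and Tyrobp, the signalling adaptor of Trem2, by 0.62 (adjusted p = 0.151), both uncalled. Of the 18 tested genes of the Csf1r pathway and of macrophage transcription factors, 10 rose and 0 fell under the combination, with a median of 0.96. Among all probes 9.39% were called higher and 21.6% lower. The summed level and the genes named next are those of this list. Their summed level, with Tyrobp the brightest, was 6.70 and 7.19 in vehicle, 7.17 and 7.02 in TP-16, 7.23 and 7.08 in anti-PD-1, and 7.38 and 7.75 in the combination. Those that rose included Inpp5d (1.57), Csf2rb (1.5) and Cebpa (1.5). The count of 10 was 0 without combination replicate 2, and 4 without vehicle replicate 1, anti-PD-1 replicate 1 or 2, or combination replicate 1.

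Adgre1, an adhesion-type surface receptor and the classical marker of mouse macrophages, had the largest rise among the 10 genes under the combination. It read 1.87 and 2.38 in vehicle, 3.28 and 2.71 in TP-16, 2.97 and 2.55 in anti-PD-1, and 3.79 and 4.60 in the combination at chr17:57622843-57622902 (mm9). Every treated array lay above both vehicle arrays, and both combination arrays above all others. Adgre1 rose 4.20-fold under the combination (log2 change 2.07, SE 0.36, 95% CI 1.18 to 2.96, adjusted p = 0.0143). Against vehicle the differences under TP-16 (0.87, adjusted p = 0.203) and under anti-PD-1 (0.635, adjusted p = 0.459) were not called.

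A dim Adgre1 probe at chr17:57550221-57550280 (mm9) was well above background on the TP-16 and combination arrays and not well above background on the vehicle and anti-PD-1 arrays. For such a probe only a bound can be given. It sets the mean of the brighter group against the mean of the dimmer one, in which each array counts with the probe's signal or the array's lowest signal well above background, whichever is higher. On this bound the probe was at least 1.87-fold higher in the combination than in vehicle and at least 2.08-fold higher than in anti-PD-1. The measured differences, which use the dim signals, were not called in limma (adjusted p = 0.093 and 0.311).

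Cd68, a glycoprotein of endosomes and lysosomes, read 3.65 and 4.11 in vehicle, 4.11 and 4.21 in TP-16, 4.33 and 4.33 in anti-PD-1, and 4.76 and 5.30 in the combination at chr11:69477775-69477834 (mm9). The combination arrays were again the highest, the anti-PD-1 arrays lay above both vehicle arrays, and TP-16 overlapped with vehicle. Under the combination Cd68 rose 2.22-fold (1.15, SE 0.23, adjusted p = 0.0187). Its other probes rose as well, by 1.165 (adjusted p = 0.0185) and 1.25 (adjusted p = 0.0218).

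Mertk, a receptor tyrosine kinase for the uptake of dead cells, read -0.97 and -1.56 in vehicle, -1.01 and -1.21 in TP-16, -1.28 and -1.55 in anti-PD-1, and -0.32 and 0.24 in the combination at chr2:128627867-128627926 (mm9). The single-agent groups each overlapped with vehicle, with the TP-16 arrays above the anti-PD-1 arrays, and all 6 lay below the combination arrays. The rise against vehicle was 2.35-fold (1.23, SE 0.27, adjusted p = 0.024). Of 15 tested genes for the clearance of dead cells, 3 rose under the combination and 0 fell, with a median of 0.10. Of all probes 9.39% were called higher and 21.6% lower. The genes that rose were Timd4 (3.13, and 2.07 with normexp), a receptor for phosphatidylserine, Pros1 (1.24), a ligand of Mertk, and Elmo1 (0.76), which acts in engulfment. Axl, the brightest gene of the list, was not among them, with a difference of -0.34 (adjusted p = 0.0793). Both combination arrays lay below both vehicle arrays for Axl, as was so for 46.4% of all probes. Its sign turned with quantile normalization (0.34, adjusted p = 0.0477). The median was 0.34 with quantile normalization and -0.08 with normexp. Summed levels were 8.28 and 8.24 in vehicle, 8.09 and 8.17 in TP-16, 8.16 and 8.26 in anti-PD-1, and 8.03 and 7.92 in the combination. Elmo1 was not called with normexp (0.32, adjusted p = 0.0653), and without combination replicate 2 the count was 0.

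Apoe, the main lipid carrier made by macrophages, read 5.69 and 6.11 in vehicle, 5.79 and 5.70 in TP-16, 5.87 and 5.84 in anti-PD-1, and 6.62 and 7.16 in the combination at chr7:20281732-20281791 (mm9). Each single-agent group overlapped with vehicle, with the TP-16 arrays below the anti-PD-1 arrays, and all 6 lay below the combination arrays. Apoe rose 1.99-fold against vehicle (0.99, SE 0.22, adjusted p = 0.0243). On its second probe the rise was 2.45-fold (adjusted p = 0.0268).

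Trem2, a surface receptor for lipids, read 3.31 and 3.92 in vehicle, 3.40 and 3.38 in TP-16, 3.76 and 3.49 in anti-PD-1, and 3.80 and 4.29 in the combination at chr17:48491537-48491596 (mm9). Vehicle replicate 2 lay between the combination arrays, and the difference of 0.42 (SE 0.26, 95% CI -0.22 to 1.06) was not called (adjusted p = 0.252). Gpnmb, a glycoprotein of lipid-laden macrophages and melanocytes, read 0.72 and 0.87 in vehicle, 0.27 and 0.73 in TP-16, 0.43 and 1.00 in anti-PD-1, and 0.92 and 0.70 in the combination at chr6:49006386-49006445 (mm9). The combination overlapped with each other group, with a difference from vehicle of 0.015 (SE 0.247, adjusted p = 0.968) whose sign turned with quantile normalization (-0.004).

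Among 22 tested lipid-associated macrophage genes, 8 rose and 3 fell under the combination, with a median of 0.41. The shares of all probes were 9.39% higher and 21.6% lower. The largest rises were those of Lpl (3.85), which splits triglycerides, Nr1h3 (2.82), a nuclear receptor for oxysterols, Abcg1 (2.72), a cholesterol exporter, and Cd36 (2.30), a fatty acid receptor. Spp1 (-0.92), Cd63 (-0.78) and Ctsl (-0.70) were called lower, but with quantile normalization they were near 0 (-0.04, -0.03 and 0.04) and uncalled, and Ctsl turned in sign. With quantile normalization 11 genes of the list were called higher and 0 lower, with a median of 0.82. The summed level, with Spp1 the brightest, was 10.13 and 10.14 in vehicle, 9.71 and 9.81 in TP-16, 10.03 and 10.15 in anti-PD-1, and 9.80 and 9.76 in the combination. Leaving out combination replicate 2 gave 0 called genes in this list.

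Marco, a scavenger receptor of some macrophage populations, was dim, at -4.20 and -3.48 in vehicle, -4.72 and -4.89 in TP-16, -4.24 and -4.41 in anti-PD-1, and -3.96 and -4.01 in the combination at chr1:122371115-122371134 (mm9), an annotated interval shorter than that of the probe shown for each other gene. Both single-agent groups lay below vehicle, narrowly for anti-PD-1, and the combination overlapped with vehicle. Of all probes, 37% lay below vehicle in this way under TP-16 and 32.6% under anti-PD-1. Under TP-16 the difference was -0.965 (SE 0.24, adjusted p = 0.102) and was not called, but it was called with normexp (-0.69, adjusted p = 0.0293) and without vehicle replicate 1 (-1.33, adjusted p = 0.035). Under the combination it was -0.15 (adjusted p = 0.669), and its sign turned with quantile normalization (0.28, adjusted p = 0.203) and without vehicle replicate 2 (0.22, adjusted p = 0.333). Normexp called it lower (-0.47, adjusted p = 0.0196).

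Fcrls, an Fc receptor-like gene that marks microglia among mouse macrophages, read 1.07 and -1.30 in vehicle, -2.505 and -2.84 in TP-16, -2.885 and -3.86 in anti-PD-1, and -2.57 and -1.86 in the combination at chr3:87056422-87056481 (mm9). Both vehicle arrays lay above the 6 treated arrays. Of all probes, 37% had both TP-16 arrays below both vehicle arrays, 32.6% both anti-PD-1 arrays and 46.4% both combination arrays. The vehicle arrays stood further apart from each other for Fcrls than the arrays of any treated group. Against vehicle the differences were -2.56 under TP-16 (SE 0.79, adjusted p = 0.13), -3.26 under anti-PD-1 (adjusted p = 0.256) and -2.10 under the combination (adjusted p = 0.0904), none of them called. Normexp called it lower under TP-16 (-2.14, adjusted p = 0.0427) and the combination (-1.89, adjusted p = 0.03). Without vehicle replicate 2 it was called under anti-PD-1 (-4.44, adjusted p = 0.0396) and the combination (-3.29, adjusted p = 0.0255), and without vehicle replicate 1 the differences were -1.38, -2.07 and -0.92. A second Fcrls probe was well above background on 0 arrays and was not tested. Of 7 tested microglia genes, Olfml3 rose (1.81) and Gpr34 (-1.35) and Tmem119 (-0.91) fell under the combination, with a median of -0.02, counts near the shares of all probes (9.39% higher and 21.6% lower), and Sall1 was not tested. The sign of the median turned with normexp (0.01) and with quantile normalization (0.34), where Sparc (0.73) was among the genes called higher. The count of 1 higher and 2 lower was 1 and 0 without vehicle replicate 2, 1 and 1 without combination replicate 1, and 0 and 0 without combination replicate 2.

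**Figure D2:**
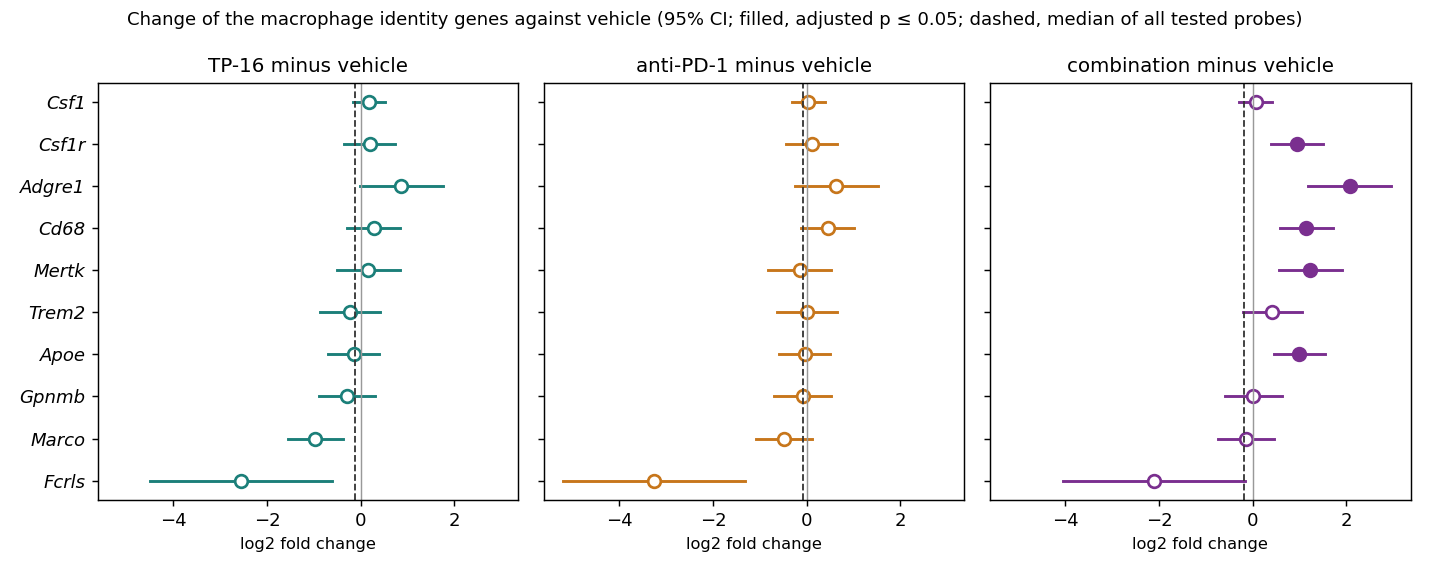
Points are log2 fold changes of the 10 genes against vehicle in limma, lines 95% confidence intervals, filled points an adjusted p of at most 0.05, and the dashed line the median of all tested probes. Filled points occur in the combination panel for Csf1r, Adgre1, Cd68, Mertk and Apoe, at 0.95 to 2.07.

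Neither single agent moved any of the 10 genes past an adjusted p of 0.05 in limma, where 0.0533% of all probes were called under TP-16 and 0.0721% under anti-PD-1. With unadjusted p up to 0.05, Marco and Fcrls were lower under TP-16 (25.4% of all probes passed), and under anti-PD-1 Fcrls was lower (14.1%). At the methods' threshold Fcrls passed as lower in both (4.49% and 2.11% of all probes lower). Adgre1 had the largest positive difference in each. Marco was called lower under TP-16 without vehicle replicate 1, and Fcrls under anti-PD-1 without vehicle replicate 2. With quantile normalization the median of all probes moved from -0.12 to 0.04 under TP-16, and the share of calls that were higher from 5.88% to 63.2% (from 39.1% to 77.8% under anti-PD-1). All comparisons with vehicle share the vehicle arrays.

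The addition of a second agent was read by setting the combination against each single agent. Against TP-16 both combination arrays lay above both TP-16 arrays for 7 genes (Csf1r, Adgre1, Cd68, Mertk, Trem2, Apoe, Marco; 23.1% of all probes) and below them for Csf1 (35.6% of all probes). Limma called 0 genes there after adjustment, as it called 0% of all probes, 7 genes with unadjusted p up to 0.05 (21.7% of all probes), and 3 higher at the methods' threshold (Adgre1, Mertk, Apoe; 3.57% of all probes). Against anti-PD-1 both combination arrays lay above both antibody arrays for 8 genes, all but Csf1 and Gpnmb (25% of all probes). After adjustment limma called 0 genes (0.0157% of all probes, all lower, against 30% higher and 70% lower calls with quantile normalization and 12.8% and 87.2% with normexp), with 5 that had unadjusted p up to 0.05 (25.8% of all probes) and 3 higher at the methods' threshold (Adgre1, Mertk, Apoe; 2.36% of all probes). Apoe was 2.21-fold higher than under TP-16 (adjusted p = 0.127) and 2.05-fold higher than under anti-PD-1 (adjusted p = 0.0784). Mertk was 2.10-fold (adjusted p = 0.143) and 2.61-fold higher (adjusted p = 0.077).

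Averaged over both antibody states, Adgre1 (1.15, SE 0.26, adjusted p = 0.0382) and Mertk (0.77, SE 0.19, adjusted p = 0.0481) were called higher in the arrays with TP-16 than in those without it, and 0 genes lower. Of all probes 3.79% were called higher and 12.6% lower. For Adgre1 TP-16 replicate 2 (2.71) lay below anti-PD-1 replicate 1 (2.97), so the arrays with and without TP-16 overlapped. For Mertk the TP-16 and vehicle arrays overlapped, and the combination arrays lay above both. With quantile normalization the calls split 50.8% higher and 49.2% lower, against 23.2% and 76.8%, and neither gene was called (adjusted p = 0.0524 and 0.0647). With the replicate number as a block, 0 of the 10 genes were called, beside 2901 of all probes. Neither gene was called without TP-16 replicate 1 or 2, anti-PD-1 replicate 1 or 2 or combination replicate 2. Without vehicle replicate 2 or combination replicate 1 they were not both called, and without vehicle replicate 1 Adgre1 was not called. Averaged over both TP-16 states, anti-PD-1 gave 0 calls among the 10 genes and 0% among all probes in limma. With unadjusted p up to 0.05 it gave 5 genes (28.1% of all probes), and at the methods' threshold Fcrls as lower (0.884% of all probes).

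The departure from additivity sets the log2 difference under both agents against the 2 single-agent differences added together. Limma called 0 of the 10 genes and 0% of all probes after adjustment. At the methods' threshold 4 genes were higher than additive (2.65% of all probes), the same number as with unadjusted p up to 0.05 (7.26% of all probes). These were Apoe (1.19, SE 0.31), Marco (1.305, SE 0.34), Mertk (1.22, SE 0.39) and Fcrls (3.72, SE 1.11), with adjusted p = 0.531, 0.531, 0.583 and 0.578. For Apoe and Mertk the single-agent arrays lay among the vehicle arrays and the combination arrays above. For Marco and Fcrls the single-agent arrays lay below vehicle. Adgre1, which had positive values under each agent alone, departed by 0.565 (SE 0.512, adjusted p = 0.874).

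The methods' t-test on the same values, at their fold and p threshold, passed 1 of the 10 genes in the combination against vehicle (Adgre1; 6.88% of all probes) and 1 against anti-PD-1 (Mertk; 1.90%). It passed 0 for TP-16 against vehicle (1.62% of all probes), anti-PD-1 against vehicle (0.937%) and the combination against TP-16 (1.65%). After Benjamini-Hochberg adjustment it called 0 genes and 0 probes in each of these comparisons.

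Over the 8 arrays the genes fell into those that followed Csf1r and those that did not. The Pearson correlation with Csf1r was 0.96 for Adgre1, 0.95 for Apoe, 0.94 for Cd68, 0.87 for Mertk and 0.84 for Trem2. It was 0.29 for Marco, 0.25 for Csf1, -0.02 for Gpnmb and -0.18 for Fcrls. All points share the groups and the array scaling, and the combination arrays stand at one end, so these values describe the group pattern. Over all 45 pairs of members the median correlation was 0.23. Outside the 10 genes, the 5 most like Csf1r among 26683 probes well above background on all arrays were Lhpp (0.995), Tlr13 (0.994), an intergenic transcript without a gene name (0.9905), Rab3il1 (0.990) and Nckap1l (0.990). Tlr13 is a receptor for bacterial RNA, and Nckap1l is a regulator of actin in blood cells.

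Of 20 other macrophage and monocyte genes, all tested, 8 rose and 2 fell under the combination, with a median of 0.77 (1.15 with quantile normalization). The shares of all probes called were 9.39% higher and 21.6% lower. The largest rises were those of Cybb (2.32), the catalytic subunit of the phagocyte oxidase, Ly6c2 (2.12, and 2.75 with quantile normalization), a marker of monocytes, Itgax (1.62) and Fcgr1 (1.38), an Fc receptor. Lyz2 (-0.55) and Cd14 (-0.49) were called lower, whereas with quantile normalization Lyz2 read 0.37 and Cd14 -0.29, both uncalled. The summed level of this list, whose brightest gene is Lyz2, was 8.93 and 9.32 in vehicle, 9.22 and 9.16 in TP-16, 9.53 and 9.39 in anti-PD-1, and 9.52 and 9.57 in the combination, which overlaps with anti-PD-1. With quantile normalization Fcgr1 was not called (adjusted p = 0.0509). The count of 8 higher was 4 without vehicle replicate 1, 3 without anti-PD-1 replicate 1 or 2, 2 without TP-16 replicate 1 or 2 or combination replicate 1, and 0 without combination replicate 2. The count of 2 lower was 0 without vehicle replicate 2, anti-PD-1 replicate 1 or 2 or combination replicate 2, and 1 without combination replicate 1.

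Markers of other cell types were read in the same comparison, in which 9.39% of all probes were called higher and 21.6% lower. Of 14 T and NK cell genes 7 rose under the combination (median 2.43), among them Cd2 (3.21), Cd5 (3.20, and 2.31 with normexp), Nkg7 (2.77) and Cd8a, which was well above background on 1 of the 2 vehicle arrays (3.78, and 2.30 with normexp). Their summed level was 3.12 and 4.86 in vehicle, 5.20 and 4.91 in TP-16, 5.47 and 5.21 in anti-PD-1, and 5.76 and 6.39 in the combination, with Gzmb the brightest. Of 9 tested dendritic cell genes 6 rose (median 1.65, or 1.22 with dim genes at their bound), among them Flt3 (2.97, and 1.6 with normexp) and Clec9a, which was not well above background in vehicle. Clec9a was at least 8.89-fold higher in the combination, a bound that holds for the scaling to the 75th percentile, since with normexp its log2 difference was 1.85. Its adjusted p of 0.0123 in limma belongs to the measured difference, which uses the dim vehicle signals, and not to the bound. Zbtb46, also among the risers, was not well above background in vehicle either, and its bound was 2.33-fold. The dendritic cell genes had summed levels of 2.03 and 2.21 in vehicle, 2.77 and 2.59 in TP-16, 2.57 and 2.30 in anti-PD-1, and 2.81 and 3.34 in the combination, with Fscn1 the brightest. Vehicle replicate 1 was the lowest array in both lists, and Ccl22 was not tested. Of 10 fibroblast genes 7 rose (median 1.1), led by Postn (2.00) and Col1a1 (1.97), with summed levels of 7.59 and 7.42 in vehicle, 7.82 and 7.59 in TP-16, 7.98 and 7.82 in anti-PD-1, and 8.35 and 8.45 in the combination, with Col1a2 the brightest. Of 6 general leukocyte genes 3 rose (median 1.23), Ptprc by 1.89, with summed levels of 6 and 6.6 in vehicle, 6.72 and 6.66 in TP-16, 6.74 and 6.58 in anti-PD-1, and 6.87 and 7.23 in the combination, with Cd52 the brightest. Of 11 tested neutrophil genes, with a median of 0.01 whose sign turned with normexp (-0.36, 3 called lower), Mmp8 rose (0.81) and S100a9 (-1.19) and S100a8 (-1.07) fell, counts near the shares of all probes. They had summed levels of 6.25 and 6.13 in vehicle, 5.86 and 5.68 in TP-16, 5.96 and 5.99 in anti-PD-1, and 5.55 and 5.23 in the combination, with Csf3r the brightest and Ngp not tested. With normexp 12 T and NK cell genes and 5 leukocyte genes were called, and with quantile normalization 5 leukocyte genes and 3 neutrophil genes were called higher. The T and NK cell count of 7 was 13 without vehicle replicate 2, 4 without TP-16 replicate 1 or 2, 2 without anti-PD-1 replicate 1 or 2 or combination replicate 1, and 0 without combination replicate 2, where the other lists also gave 0. The dendritic cell count was 3 without combination replicate 1 and the leukocyte count 5 without vehicle replicate 2. The neutrophil counts of 1 higher and 2 lower were 0 and 3 without vehicle replicate 1, 2 and 2 without vehicle replicate 2, 0 and 2 without a TP-16 or anti-PD-1 array, and 1 and 0 without combination replicate 1. With quantile normalization Cd8a (adjusted p = 0.0576) and Cd83 of the dendritic cell genes (0.0591) were not called, and with normexp Zbtb46 was not (0.18, adjusted p = 0.269). The part of these cells in the rise of the macrophage genes was not tested.

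The remaining lists had medians of 0.65 for skeletal muscle, 0.53 for endothelium, -0.39 for cell division, -0.89 for B cells and -1.05 for epithelium. The cell division median was -0.06 with quantile normalization, and the endothelial median 0.29 with normexp. The medians of melanocyte genes (-0.05) and adipocyte genes (-0.08) turned in sign with quantile normalization (0.52 and 0.16), and were -0.51 and -0.3 with normexp. Of all probes 9.39% were called higher and 21.6% lower. Vwf (1.55) of 6 endothelial genes rose and 0 fell. Fallen genes were Ms4a1 (-2.49) and Cd79a of 5 tested B cell genes, Krt18 (-1.38) and Cdx2 of 6 tested epithelial genes, Tyr (-1.21) and Dct (-0.76) of 5 tested melanocyte genes, and 4 of 10 cell division genes (Tk1, Ccnb1, Birc5 and Bub1, -0.57 to -0.44). Cd79a and Cdx2 were not well above background in the combination, and were at least 2.24-fold and 6.83-fold higher in vehicle. Their adjusted p in limma (0.0159 and 0.0112) belongs to the measured differences, which use the dim signals, and not to these bounds. These bounds hold for the scaling to the 75th percentile, and the log2 differences were smaller with normexp for Cd79a (-1), Cdx2 (-1.73) and Ms4a1 (-1.71), and with quantile normalization for Cd79a (-0.95). The other cell division genes were uncalled, but Mki67 and Top2a were called higher with quantile normalization (0.58 and 0.61) and with normexp (0.43 and 0.48). With quantile normalization Birc5 was at 0, Ccnb1 and Tk1 were not called either, nor were Vwf (adjusted p = 0.0553) and Dct (0.0533), whereas Tek of the endothelial genes was called higher (1.71, adjusted p = 0.0298). Limma called 0 of 6 adipocyte genes and 0 of 8 skeletal muscle genes. At unadjusted p up to 0.05 there were 0 adipocyte and 2 muscle genes, beside 14555 of all 31912 probes. Without combination replicate 2 each of these lists gave 0 calls. The adipocyte genes gave 2 calls lower without vehicle replicate 1 and 2 higher without vehicle replicate 2, and the methods' threshold passed 0 adipocyte and 2 muscle genes. The endothelial genes gave 1 without vehicle replicate 2 and 0 without any other array, and the skeletal muscle genes gave 1 higher without vehicle replicate 2 or either anti-PD-1 array. The count of 4 cell division genes was 2 without vehicle replicate 1, a TP-16 array or combination replicate 1, 1 without an anti-PD-1 array and 0 without vehicle replicate 2. With normexp, which called 13732 of 31912 probes lower and 3334 higher, 4 epithelial, 3 melanocyte and 2 adipocyte genes were called lower and 2 muscle genes higher. The melanocyte count was 1 without vehicle replicate 2, a TP-16 or an anti-PD-1 array and 0 without combination replicate 1, the B cell count 1 without vehicle replicate 2, and the epithelial count 1 without vehicle replicate 1. Summed levels of the epithelial genes, with Krt20 the brightest, were 5.59 and 5.75 in vehicle and 5.81 and 5.26 in the combination, and those of the endothelial genes, with Emcn the brightest, 2.69 and 2.43 against 2.69 and 3.18. Those of the B cell genes, with Cd79b the brightest, were 0.42 and 0.19 in vehicle and 0.34 and 0.44 in the combination, and those of the melanocyte genes, with Dct the brightest, -1.72 and -0.94 against -1.74 and -1.72. The part of these lists in the macrophage gene values was not tested. Epcam and Vil1, markers of intestinal epithelium, Blk of the B cell genes and Tyrp1 of the melanocyte genes were too dim to be tested.

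Sequence upstream of the genes was compared because Cd68, Mertk and Apoe rose together. RefSeq promoter entries (GRCm38.p6) were matched by symbol for 8 of the 10 genes, not for Csf1r and Adgre1, with 10 windows of 250 bases before a transcription start. The letters AGGAAGT, a core of the binding motif of the myeloid factor PU.1 (the product of Spi1), were searched on both strands, as were the letters CACGTG (the same on both strands), which are bound by factors of the MiT family that act on lysosomal genes. In 32817 promoters, 7.69% held the first and 6.02% the second. Of the 10 windows 1 held AGGAAGT, that of Fcrls, starting 75 bases before the start on the opposite strand, and 0 held CACGTG. The windows of the genes that rose and of Fcrls are given on the strand of the gene, with the matched letters in capitals, for Cd68 at chr11:69666171-69666420 (minus strand), Mertk at chr2:128698665-128698914 (plus strand), the most upstream of the 3 Apoe starts at chr7:19699189-19699438 (minus strand) and Fcrls at chr3:87263525-87263774 (minus strand).
Cd68: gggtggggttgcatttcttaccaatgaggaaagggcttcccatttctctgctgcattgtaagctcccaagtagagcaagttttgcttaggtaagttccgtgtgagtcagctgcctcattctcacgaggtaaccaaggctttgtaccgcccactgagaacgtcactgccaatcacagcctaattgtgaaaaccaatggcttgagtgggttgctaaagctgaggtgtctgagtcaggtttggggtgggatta
Mertk: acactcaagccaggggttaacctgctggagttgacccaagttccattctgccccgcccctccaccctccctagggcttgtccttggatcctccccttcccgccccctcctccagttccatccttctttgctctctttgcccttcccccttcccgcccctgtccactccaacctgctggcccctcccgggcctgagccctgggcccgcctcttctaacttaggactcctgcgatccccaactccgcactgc
Apoe: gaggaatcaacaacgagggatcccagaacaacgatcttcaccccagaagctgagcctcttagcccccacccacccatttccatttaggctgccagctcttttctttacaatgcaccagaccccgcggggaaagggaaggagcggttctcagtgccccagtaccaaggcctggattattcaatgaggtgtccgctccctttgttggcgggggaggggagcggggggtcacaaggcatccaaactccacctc
Fcrls: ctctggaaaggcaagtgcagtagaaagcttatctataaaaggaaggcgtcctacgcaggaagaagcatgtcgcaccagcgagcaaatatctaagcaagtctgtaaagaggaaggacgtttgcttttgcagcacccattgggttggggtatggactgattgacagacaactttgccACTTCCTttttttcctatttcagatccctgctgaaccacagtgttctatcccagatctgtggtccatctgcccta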

How the data were processed

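RNA from CT26 tumors of 4 groups, 2 samples each, was measured on 8 one-colour arrays. Groups and replicate numbers came from the labels. The labels name a column kit for extraction and the methods TRIzol. The authors deposited scanner files with spot intensities, background-subtracted and detrended by Agilent Feature Extraction 10.7.1.1 per the submitters' processing notes. A second deposited table holds log2 values that the methods ascribe to GeneSpring, and its kind of normalization is not given in the sources used here. Its column medians were 5.17 on every array, it correlated with the scanner log2 intensities at 0.995 to 1, and its zero point is unknown.

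Control spots were removed, 38 probes with outlier marks left out, and spots of a probe averaged. From each processed log2 intensity the array's 75th percentile over non-control spots was subtracted. Testing took probes with signal well above background in both samples of some group, in 1 limma 3.58.1 fit under R 4.3.3 with 4 group means and empirical Bayes moderation (4 residual degrees of freedom), in 8 comparisons. Calls were an adjusted p of at most 0.05 or, by the methods' threshold, a fold of 2 or more with unadjusted p up to 0.05. Probe positions are those of the array annotation (mm9). RefSeq named 32971 probes (58.3%), and the others kept the array's names.

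The 10 genes and the 17 gene lists were chosen with earlier results of these data known. All 10 genes were named, up to 4 called genes per direction and list, Il34, Csf2, Spi1 and Tyrobp always, and the 5 probes most correlated with Csf1r; 1 gene that this rule takes is not reported here. Alternatives were quantile normalization, normexp correction (offset 50), other filters, the authors' log2 values, other fits, the methods' t-test, the mean of a gene's probes, a replicate block and leaving out each array. With 1 slide, no block for the slide could be fitted. The number of arrays limits the precision. Figures were drawn with matplotlib 3.10.9 under Python 3.11.15.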

Additional observations from a re-analysis of the deposited data

How the results depend on the processing

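The counts of macrophage genes called moved with the settings, and the cause was not tested. With normexp, 2 genes were called for TP-16 against vehicle (21.9% of all probes), 5 for the combination against anti-PD-1 (23.9%), 6 for the TP-16 main effect (46.7%) and 1 for the anti-PD-1 main effect (5.8%). Trended and robust moderation gave 1 for the combination against TP-16 (400 probes in all), 3 against anti-PD-1 (2585 probes) and 1 for the anti-PD-1 main effect (2396 probes). Without a filter on dim probes the combination against vehicle gave 2 (5121 probes in all) and the TP-16 main effect 1 (11578 probes). Testing only probes above background on all arrays gave 1 for the combination against anti-PD-1 (1139 probes). In the fit of the compared groups alone, with fewer samples, and in the methods' t-test, the combination against vehicle gave 0. The TP-16 main effect gave 0 with quantile normalization (2781 probes), 0 with the authors' log2 values (2768 probes) and 1 with the mean of a gene's probes (3811 genes). At the methods' threshold the counts against vehicle were 1 with either agent alone, with 3 for the combination against each agent, 1 for each main effect and 4 for the departure from additivity.

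Leaving out 1 array, where the lone sample is assumed to vary like the other groups, kept the 5 called genes higher in the combination than in vehicle. Their log2 differences ranged from 0.70 to 1.2 for Csf1r, 1.67 to 2.48 for Adgre1, 0.88 to 1.42 for Cd68, 0.94 to 1.525 for Mertk and 0.73 to 1.26 for Apoe. The number of all probes called also differed between these fits. With the replicate number as a block (replicate block), the TP-16 main effect no longer called Adgre1 or Mertk, and no other count of these genes changed. Replicate differences of pairs of groups correlated at -0.19 to 0.29. With a single replicate difference per group, this cannot show whether equal numbers pair the samples.

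Among the 10 genes, signs reversed for uncalled differences only. Apoe was at 0.12 under TP-16 and 0.112 under anti-PD-1 with quantile normalization, and at 0.124 and 0.113 with the authors' log2 values. Under the combination, Gpnmb was at -0.004 and -0.002 and Marco at 0.276 and 0.277 in these settings, and Csf1 at -0.135 with the mean of its probes. Without 1 array, the differences under anti-PD-1 ranged from -0.077 to 0.291 for Csf1r, -0.08 to 0.152 for Csf1, -0.445 to 0.143 for Mertk, -0.298 to 0.315 for Trem2, -0.255 to 0.164 for Apoe and -0.365 to 0.206 for Gpnmb. Under TP-16 they ranged from -0.134 to 0.454 for Mertk, -0.534 to 0.079 for Trem2 and -0.362 to 0.057 for Apoe. Under the combination they ranged from -0.047 to 0.176 for Csf1, -0.097 to 0.128 for Gpnmb and -0.508 to 0.216 for Marco. Of the single-gene values under other settings, 679 kept direction and side of the threshold, 42 lost a call, 14 gained one and 25 reversed.

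Precision is limited by having 2 arrays a group, and 51.4% to 59.7% of probes were well above background on an array. Across 18 alternative settings the combination against vehicle was called for Adgre1 and Cd68 in 15 and for Csf1r, Mertk and Apoe in 13, and none of the 5 reversed. These settings are not separate tests. For this comparison, leaving out either TP-16 array gives the same fit, as does leaving out either anti-PD-1 array. The authors' log2 values called 8114 of all probes, beside 8098 with quantile normalization.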
